A study of Schizosaccharomyces pombe with 12 samples.

Results

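The 8 genes described here serve iron-sulfur cluster assembly or the use and storage of iron in the fission yeast *S. pombe*. They were taken by name from 6988 features: 5 assembly genes (*isu1*, *nfs1*, *grx5*, *isa1* and *isa2*) and 3 genes treated as iron users (*pcl1*, *bio2* and *glt1*). All 8 were found once in each of 3 tables. The product names in the tables fit that division for all but *pcl1*, which the tables describe as a vacuolar transporter of ferrous iron and manganese. It stores iron and does not carry it as a cofactor.

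The study took poly(A)+ RNA from 1 wild-type haploid *h-* strain, AGP72, at 0, 2, 4 and 8 h, with 3 libraries at each time. The 0 h cells grew in log phase in YES, which is made from yeast extract and supplements. The later cells had spent 2, 4 or 8 h in ePMGT(+PO4), whose known ingredients include phosphate, glutamate and thiamine. The question the comparison addresses is how the change of medium alone affects RNA levels. No YES culture at the later times was analysed here, so effects of the medium and of time in culture cannot be told apart. The study describes the 3 libraries of a group as biological replicates.

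The values are group averages of normalized reads, that is, read counts divided by a size factor for each library and averaged over the 3 libraries by the authors. They summed to between 16.8 M and 17.6 M reads a group. The average carries no spread over libraries, so whether a difference exceeds the spread between replicates was not tested, and neither a standard deviation nor a p-value is given. Each log2 ratio is given with a 95% interval that covers counting error only, on the assumption that a normalized read stands for about 1 read in each of 3 libraries. As a second yardstick, ratios were placed among those of all features that averaged 100 or more in the higher of the groups compared. In bulk RNA, fewer cells that carry a transcript and less of it per cell cannot be told apart.

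Iron-sulfur clusters are small groups of iron and sulfide that many enzymes need. In mitochondria the cysteine desulfurase Nfs1 supplies sulfur, the scaffold protein Isu1 holds the new [2Fe-2S] cluster, and the glutaredoxin Grx5 passes it on. Isa1 and Isa2 act later, in making [4Fe-4S] clusters. Biotin synthase (Bio2) and glutamate synthase (Glt1) carry such clusters. In fission yeast a lack of iron is met by Php4, a repressor that acts through the CCAAT-binding complex of Php2, Php3 and Php5 and lowers transcription of iron-using genes. When iron is ample, Fep1, a GATA-type repressor, turns off genes for iron uptake.

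Because CCAAT is the element that the Php complex binds, the promoters of *isu1* and of the 3 iron users are shown here. Each run gives the 250 bases before the annotated transcript start in RefSeq assembly ASM294v3, on the strand of the gene. All 8 genes were matched there by systematic identifier. Capitals mark CCAAT or its reverse, ATTGG, and GATAA, the core of the element bound by Fep1, or its reverse, TTATC.
isu1: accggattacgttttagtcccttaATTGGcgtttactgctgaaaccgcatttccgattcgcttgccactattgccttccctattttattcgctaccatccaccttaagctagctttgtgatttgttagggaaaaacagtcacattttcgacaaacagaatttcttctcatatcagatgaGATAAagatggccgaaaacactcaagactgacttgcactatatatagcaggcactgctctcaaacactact
pcl1: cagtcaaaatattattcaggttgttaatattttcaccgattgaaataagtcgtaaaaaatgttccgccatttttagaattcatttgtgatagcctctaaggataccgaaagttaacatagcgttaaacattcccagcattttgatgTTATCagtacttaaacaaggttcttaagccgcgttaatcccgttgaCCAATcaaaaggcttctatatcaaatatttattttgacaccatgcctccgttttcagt
bio2: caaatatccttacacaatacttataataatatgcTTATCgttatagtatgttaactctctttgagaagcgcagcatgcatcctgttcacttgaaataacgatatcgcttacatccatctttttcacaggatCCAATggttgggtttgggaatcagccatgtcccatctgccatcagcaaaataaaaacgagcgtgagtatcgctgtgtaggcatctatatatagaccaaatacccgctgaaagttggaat
glt1: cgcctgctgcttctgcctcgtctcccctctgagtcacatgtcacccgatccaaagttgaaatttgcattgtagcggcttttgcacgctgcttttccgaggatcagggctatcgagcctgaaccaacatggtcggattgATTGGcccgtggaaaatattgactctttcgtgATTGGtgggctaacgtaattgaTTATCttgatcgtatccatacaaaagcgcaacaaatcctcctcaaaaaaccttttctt

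The promoter of *isu1* lies at I:518952-519201 on the minus strand, that of *pcl1* at II:165306-165555 on the minus strand, that of *bio2* at III:176567-176816 on the plus strand, and that of *glt1* at I:3302575-3302824 on the plus strand. The window of *pcl1* overlaps an annotated noncoding RNA on the opposite strand, and that of *glt1* overlaps 1 on each strand. In *pcl1* the CCAAT box began 58 bases before the start, in *bio2* 119 bases before it, and *glt1* had 2 boxes on the reverse strand, at 112 and 80 bases. In *isu1* the box before the start was on the reverse strand at 226 bases. With the window set at 250 bases before to 50 bases after the start, CCAAT was present on either strand in 7 of the 8 genes, all but *grx5*, against 42.2% of 5106 coding promoters of that length. GATAA was present in 6 of the 8, all but *isa1* and *isa2*, against 59.5% of those promoters. The motifs share no bases in the 8 windows. A match of 5 letters is a description and not a binding site. CCAAT was present in *isu1*, whose RNA was higher after the move, and in the iron users, whose RNA was lower. Whether either motif plays a part in these RNA levels was not tested.

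**Figure D1:**
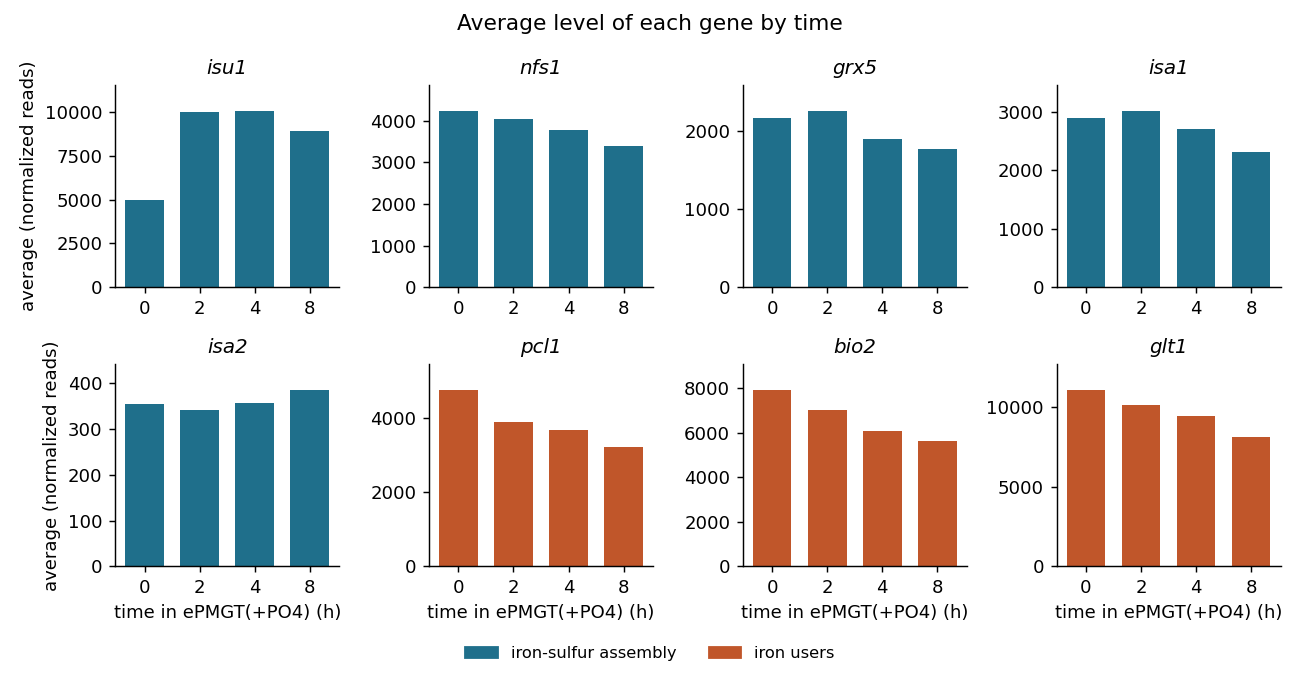
Average level of each of the 8 genes (normalized reads, vertical axis, own scale in each panel) at 0, 2, 4 and 8 h in ePMGT(+PO4) (horizontal axis), with assembly genes in blue and iron users in orange. The bars are the authors' averages of 3 libraries and carry no error. The bar of *isu1* is 10016 at 2 h against 4967 at 0 h, and the bars of *pcl1*, *bio2* and *glt1* are shorter at each later time.

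The scaffold gene *isu1* (SPAC227.13c) was the only one of the 8 with more RNA than at 0 h by 1.3-fold or more. It averaged 4967 normalized reads at 0 h, 10016 at 2 h, 10037 at 4 h and 8911 at 8 h. These values made it 2.02-fold higher at 2 h than at 0 h (log2 ratio 1.01, counting interval 0.98 to 1.04), 2.02-fold higher at 4 h (1.01, 0.99 to 1.04) and 1.79-fold higher at 8 h (0.84, 0.81 to 0.87). Its level was thus already at its later height by 2 h and did not differ between 4 h and 2 h beyond counting error (log2 ratio 0.0029, interval -0.020 to 0.026), although with averages scaled to group totals the ratio was -0.07, beyond that interval. Between 8 h and 4 h it was lower by 0.17 on the log2 scale, with 14.3% of 5342 features having a lower ratio. Among all features, only 1.64% of 5373 had a higher ratio than *isu1* at 2 h, 1.64% of 5358 at 4 h and 3.22% of 5378 at 8 h.

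The other assembly genes stayed within 1.3-fold of their 0 h averages at all 3 times. The desulfurase gene *nfs1* (SPBC21D10.11c) averaged 4224 normalized reads at 0 h, 4037 at 2 h, 3768 at 4 h and 3398 at 8 h, so that its 8 h level was 1.24-fold below that at 0 h (log2 ratio -0.31, interval -0.35 to -0.28). The glutaredoxin gene *grx5* (SPAPB2B4.02) averaged 2162 at 0 h, 2250 at 2 h, 1891 at 4 h and 1771 at 8 h, a log2 ratio of -0.29 at 8 h (interval -0.34 to -0.24). Both were lower late in the course, but *grx5* was at or slightly above its 0 h level at 2 h, and its largest step came between 2 and 4 h (-0.25). That step was lower than those of all but 5.94% of 5358 features.

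The late-acting pair differed from each other. The RNA of *isa1* (SPCC645.03c) averaged 2893 normalized reads at 0 h, 3010 at 2 h, 2702 at 4 h and 2317 at 8 h, with a log2 ratio of -0.32 at 8 h (interval -0.37 to -0.27). That of *isa2* (SPBC3B9.17) averaged 354 at 0 h, 342 at 2 h, 356 at 4 h and 385 at 8 h. Its ratio at 8 h had a counting interval that includes 0 (0.12, -0.0016 to 0.24). Thus *isa1* was lower at 8 h than at 0 h beyond counting error, while the ratio of *isa2* was above 0 but within counting error. Neither ratio was set against the spread between replicates. Between 8 h and 2 h *isa2* had a log2 ratio of 0.17, with a counting interval (0.05 to 0.29) that does not include 0. The interval of *isa2* is the widest of the 8 because its average is the smallest.

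All 3 iron users had less RNA than at 0 h at every later time, with the lowest value at 8 h. The vacuolar transporter gene *pcl1* (SPBC1683.10c) averaged 4742 normalized reads at 0 h, 3882 at 2 h, 3680 at 4 h and 3208 at 8 h. Its log2 ratios were -0.29 at 2 h (interval -0.32 to -0.25), -0.37 at 4 h (-0.40 to -0.33) and -0.56 at 8 h (-0.60 to -0.53), which is 1.48-fold lower at 8 h than at 0 h. It was the lowest ratio of the 8 genes at 8 h, and 3.87% of 5378 features had a lower one.

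Biotin synthase RNA, from *bio2* (SPCC1235.02), averaged 7883 normalized reads at 0 h, 7009 at 2 h, 6053 at 4 h and 5629 at 8 h. Its log2 ratios were -0.17 at 2 h (interval -0.20 to -0.14), -0.38 at 4 h (-0.41 to -0.35) and -0.49 at 8 h (-0.51 to -0.46), or 1.40-fold lower at 8 h. The step from 2 to 4 h (-0.21) was the largest of its steps. At 4 h the ratio was 1.302-fold and so lay at the 1.3-fold limit itself, and *pcl1* at 1.289-fold lay just under it. Centred on the median of all features, *bio2* too lay under the limit at 4 h, and scaled to group totals both *bio2* (-0.44) and *pcl1* (-0.42) were past it.

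Glutamate synthase RNA, from *glt1* (SPAPB1E7.07), averaged 11028 normalized reads at 0 h, 10134 at 2 h, 9404 at 4 h and 8093 at 8 h. Its log2 ratios were -0.12 at 2 h, -0.23 at 4 h (interval -0.25 to -0.21) and -0.45 at 8 h (-0.47 to -0.42), or 1.36-fold lower at 8 h than at 0 h. Nearly as large a step lay between 4 and 8 h (-0.22) as between 0 and 4 h. At 8 h the ratios of the 3 iron users lay close together, between -0.56 and -0.45, and below those of all 5 assembly genes.

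**Figure D2:**
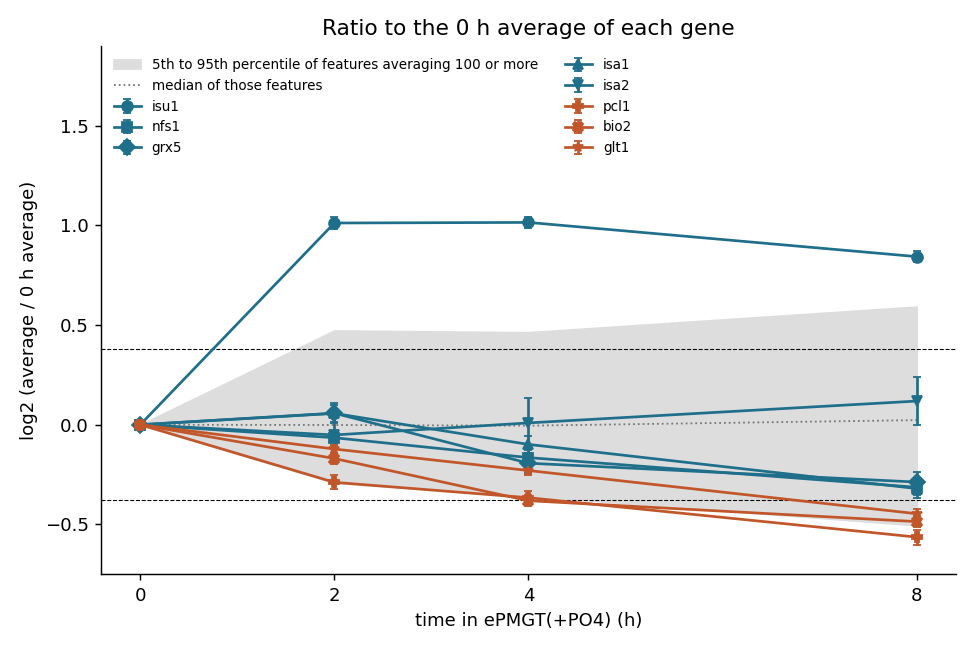
Log2 ratio of each gene's average to its 0 h average (vertical axis) against time in ePMGT(+PO4) in h (horizontal axis). Assembly genes are blue and iron users orange. Bars are 95% counting intervals, dashed lines mark 1.3-fold, and the grey band holds the 5th to 95th percentile of features averaging 100 or more, -0.50 to 0.59 at 8 h. *isu1* lies above the band at all 3 times. Below it lie *pcl1* (-0.37) and *bio2* (-0.38) at 4 h, where its lower edge is at -0.36, and *pcl1* alone (-0.56) at 8 h.

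Counted with a limit of 1.3-fold, 1 of the 8 genes (*isu1*) was higher and 0 were lower at 2 h, against 6.57% higher and 2.66% lower among 5373 features. At 4 h 1 was higher and 1 (*bio2*) lower, against 6.53% and 4.37% of 5358 features. At 8 h *isu1* was higher and *pcl1*, *bio2* and *glt1* were lower, 3 of 8, against 9.06% higher and 9.24% lower among 5378 features. Set to the 2-fold limit that the study used, *isu1* alone was past it, at 2 h and at 4 h but not at 8 h, and scaled to group totals its 4 h log2 ratio was 0.96, just under that limit. The study further asked for that fold at more than 1 time and set a limit on the adjusted p-value. Neither was applied here. Of all features, 1.68% were 2-fold higher and 0.13% 2-fold lower at 2 h. The shares were 1.68% and 0.224% for the 4 h group, and 2.53% and 0.781% for the 8 h group. With only 8 genes, 1 gene is a large share, so these counts are read gene by gene.

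The assembly genes and the iron users were set against each other by their medians. The median log2 ratio of the 5 assembly genes came to 0.06 at 2 h, -0.10 at 4 h, and -0.29 by 8 h. For the 3 iron users it was -0.17, -0.37 and -0.49 at those times. Assembly genes thus lay above iron users by 0.23 at 2 h, by 0.27 at 4 h and by 0.20 at 8 h. The median over all features was near 0 throughout (-0.0015, -0.0048 and 0.023 for the 3 times in order). Once *isu1* was left out, the assembly genes had medians of 0.0028, -0.13 and -0.30, so the medians of that group also went below 0 with time. From 2 h on, the medians of the groups differed little in their course: between 8 h and 2 h they were -0.25 for assembly genes and -0.32 for iron users. The gap between the groups was therefore present at 2 h and remained of like size.

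A common course from 2 to 8 h was seen in 6 of the 8 genes. In *nfs1*, *grx5*, *isa1*, *pcl1*, *bio2* and *glt1* the average was lower at 4 h than at 2 h and lower again at 8 h, a pattern shared by 25.5% of 5405 features. In *nfs1*, *pcl1*, *bio2* and *glt1* it was lower at every step from 0 h on, as in 11.9% of features. The exceptions were *isu1*, which was level between 2 and 4 h, and *isa2*, which was higher at each step from 2 h. Scaled to group totals, *isa2* was not higher at 4 h than at 2 h (-0.01). The comparisons with 0 h share the 0 h libraries, so their ratios are not independent of each other.

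Set to coding length, *isu1* had the highest level of the 8 at every time. It averaged 8579 normalized reads per kb of coding length at 0 h, 17299 at 2 h, 17334 at 4 h and 15391 at 8 h. At 0 h it was followed by *bio2* (7219 reads per kb), *pcl1* (6505), *isa1* (5050), *grx5* (4902), *nfs1* (2805), *glt1* (1740) and *isa2* (573). The order at 8 h was the same, with *bio2* next at 5154 reads per kb and *isa2* last at 622. The neighbours *isa1* and *grx5* lay close at 8 h, at 4044 and 4016 reads per kb. Per kb of annotated exon, which includes untranslated sequence, *bio2* (3938 reads per kb) stood above *isu1* (3234) at 0 h and *nfs1* (2387) above *grx5* (2325). At 8 h *isu1* (5802) was highest by exon length too, but *pcl1* (1811) lay below *isa1* (2116), *nfs1* (1920) and *grx5* (1904). The order at 0 h and at 8 h thus depends on the length used.

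**Figure D3:**
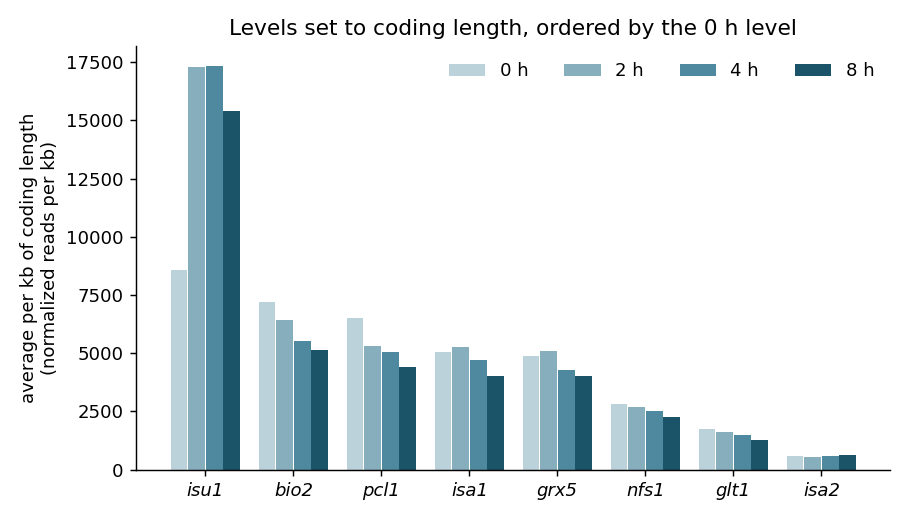
Average level per kb of coding length (normalized reads per kb, vertical axis) of the 8 genes, ordered by the 0 h level, at 0, 2, 4 and 8 h (light to dark bars). The bars carry no error. *isu1* stands at 17299 reads per kb at 2 h against 8579 at 0 h, while *isa2* is the lowest gene at every time.

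The balance between the scaffold and the other genes shifted accordingly. The ratio of *isu1* reads to *nfs1* reads stood at 1.18 at 0 h, 2.48 at 2 h, 2.66 at 4 h and 2.62 at 8 h. Against *glt1* it was 1.10 at 8 h and 0.450 at 0 h. These are ratios of reads and not of molecules, because the genes differ in length.

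The rest of the pathways was read from 7 lists of 74 further genes. At 2 h, 8 of these exceeded their 0 h average by 1.3-fold and 1 fell short of it by as much. Among all features 6.57% were higher and 2.66% lower at that time. The numbers were 6 and 4 at 4 h, against 6.53% and 4.37% of all features. At 8 h they were 6 and 7, against 9.06% and 9.24%. The 74 genes were thus past the limit about as often as features in general at 8 h. At 2 h the share higher was larger than over all features, but the 8 included *gdh1* and *gln1*, listed only as pathway partners of *glt1*. It is not read as a result about the 74 genes. Their median log2 ratio was -0.03, -0.05 and -0.05 at the 3 times.

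Most of the other mitochondrial assembly genes lay within 1.3-fold of 0 h at each time. Of 14 genes, 2 were past 1.3-fold upwards and 1 downwards at 2 h, against 6.57% and 2.66% of all features. Only 1 was past it at 4 h, upwards, against 6.53% upwards and 4.37% downwards. At 8 h there was 1 in each direction, against 9.06% and 9.24% of all features. The exception in size was *mmt1*, for a mitochondrial iron transporter, which averaged 272 normalized reads at 0 h, 1253 at 2 h, 1393 at 4 h and 1694 at 8 h, a log2 ratio of 2.64 at 8 h. The mitochondrial iron carrier gene *mrs3* had a log2 ratio of 0.48 at 2 h and 0.14 at 8 h. The co-chaperone gene *mge1* had -0.56 at 8 h, as low as *pcl1*. The genes for the partner of Nfs1, *isd11* (-0.24 at 8 h), for the exporter *atm1* (-0.31) and for frataxin, *fxn1* (0.07), were within 1.3-fold.

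In the cytosolic assembly list, 1 of 8 genes was higher and 3 were lower at 8 h, with a median of -0.30, against 9.06% higher, 9.24% lower and a median of 0.023 over all features. The higher one was *tah18*, a diflavin oxidoreductase that passes electrons to Dre2, with log2 ratios of 0.66 at 2 h, 0.88 at 4 h and 0.84 at 8 h. Its partner *dre2* had -0.43 at 8 h. Also past the limit were *lto1* (-0.48) and *rli1* (-0.45), which the tables tie to ribosome biogenesis and translation as well as to clusters. The hydrogenase-like gene *nar1* had -0.35 at 8 h.

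Among 15 other enzymes with a cluster, 1 was higher and 3 were lower at 8 h, with a median of -0.15, beside the same shares of all features (9.06% and 9.24%). The lipoic acid synthase gene *lip5* had log2 ratios of 0.60 at 2 h, 0.65 at 4 h and 0.80 at 8 h. On the low side were *dph2*, for diphthamide synthesis (-0.52 at 8 h), *leu2*, for isopropylmalate dehydratase of leucine synthesis (-0.46), and *rli1*. The aconitase gene *aco1* (0.16) and the Rieske protein gene *rip1* (0.20) were above 0 at 8 h, unlike *bio2* and *glt1*. The 4 genes of succinate dehydrogenase, among them *sdh2* for the iron-sulfur subunit (-0.12 at 8 h), lay between -0.16 and -0.05.

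Heme and other iron enzymes were nearly all within 1.3-fold of 0 h. Of 19, only the sphingolipid hydroxylase gene *sur2* was past 1.3-fold, at all 3 times, with a log2 ratio of 0.56 at 8 h, and none was lower by that much. Among all features 6.57%, 6.53% and 9.06% were higher at 2, 4 and 8 h, and 2.66%, 4.37% and 9.24% were lower. The median of the 19 at 8 h was 0.06. Among glutaredoxins and thiol proteins 0 of 10 were past the limit at 8 h, beside the same shares of all features. Earlier, *grx4*, a cytosolic monothiol glutaredoxin that takes part in iron sensing, had 0.44 at 2 h. The mitochondrial thioredoxin gene *trx2* had -0.51 at 4 h.

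**Figure D4:**
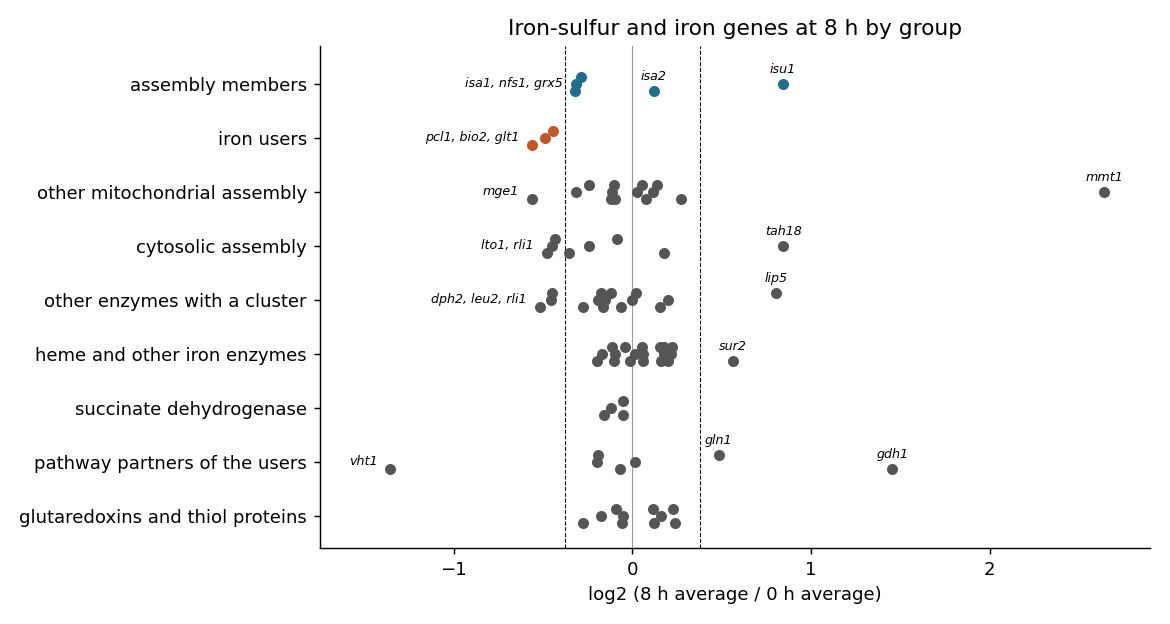
Log2 ratio of the 8 h average to the 0 h average (horizontal axis) of each of the 8 genes and of the further genes in 7 lists (rows, 1 point a gene). Dashed lines mark 1.3-fold. The 3 iron users lie between -0.56 and -0.45, while most points of the other rows lie between the dashed lines. The farthest points are *mmt1* (2.64), *gdh1* (1.45) and *vht1* (-1.35).

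The pathway partners of *glt1* and *bio2* lay on either side of 0. Glutamate synthase and glutamine synthetase together make glutamate from ammonium, and glutamate dehydrogenase is the other route. Whereas *glt1* was lower at 8 h, *gdh1*, for the NADP-specific glutamate dehydrogenase, averaged 13167 normalized reads at 0 h, 22569 at 2 h, 28082 at 4 h and 36077 at 8 h (log2 ratio 1.45 at 8 h). The glutamine synthetase gene *gln1* had log2 ratios of 0.59 at 2 h, 0.60 at 4 h and 0.48 at 8 h. In biotin metabolism, *bio2* was lower beside *vht1*, for the plasma membrane biotin transporter, which averaged 15242 at 0 h, 13149 at 2 h, 9246 at 4 h and 5962 at 8 h (-1.35 at 8 h). The biotin ligase gene *bpl1* had -0.37 at 2 h and -0.20 at 8 h, and *cut6*, for acetyl-CoA carboxylase, had -0.07 at 8 h.

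The genes that sense iron were read beside these values. The repressor gene *php4* averaged 957 normalized reads at 0 h, 2337 at 2 h, 2434 at 4 h and 2222 at 8 h, which is 2.44-fold, 2.54-fold and 2.32-fold above 0 h. Both *php4* and *isu1* were above 0 h at all 3 times and lower at 8 h than at 4 h, *isu1* by 0.17 on the log2 scale. The iron users were lower at each step. The partner genes *php2*, *php3* and *php5* had log2 ratios of 0.31, 0.02 and 0.22 at 8 h, *fra2* had -0.19, and *fep1* had -0.29 at 2 h, -0.41 at 4 h and -0.32 by 8 h. The part of these regulators in the values of the 8 genes was not tested.

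The genes with the course most like that of each member were found by distance over the 3 log2 ratios against 0 h, among 4741 coding genes averaging 100 or more in every group. Nearest to *isu1* were the sterol desaturase gene *erg32* (distance 0.10), the phospholipid methyltransferase gene *cho2* (0.15), the agmatinase gene SPBC8E4.03 (0.17), *sam1* for S-adenosylmethionine synthetase (0.19) and the sulfate transporter gene *sul2* (0.21). No other member was among them. For *pcl1* the nearest were *imp3* and *utp20* (U3 snoRNP proteins), *dph2*, the transporter gene SPCC330.07c and *rpa43* (RNA polymerase I), at distances of 0.033 to 0.059. For *bio2* they were *rrp8* (rRNA methyltransferase), *ure6*, *ser1*, *rrp1402* (ribosome biogenesis) and SPBC16D10.01c, at 0.036 to 0.065. For *glt1* they were *puf6* (RNA binding), SPBC215.06c (rRNA processing), *rpc10* (RNA polymerase), *nop2* (rRNA methylation) and *mrt4* (ribosome assembly), at 0.023 to 0.037. Several of these products serve rRNA or ribosome assembly, while *dph2* is among the enzymes with a cluster listed above. The share of such products among the 4741 genes was not computed. The course of the iron users was thus shared by genes outside the iron lists used here.

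Neighbours in the genome that had ratios opposite to those of the iron users were chosen after the values were seen. In the RefSeq annotation *pcl1* neighbours *frp1* on the same strand, the gene for a plasma membrane ferric-chelate reductase of iron uptake. While *pcl1* was 1.48-fold lower at 8 h than at 0 h, *frp1* averaged 3756 normalized reads at 8 h against 166 at 0 h, a log2 ratio of 4.50. Its neighbour on the other side, the isocitrate lyase gene *icl1*, had 0.47 at 8 h. Next to *bio2*, SPCC1235.01 had 0.81, and next to *glt1*, SPAPB1E7.08c had 0.50 at that time. Noncoding RNAs on the opposite strand are annotated over *nfs1*, *grx5*, *isa2*, *pcl1*, *bio2* and *glt1*, and a coding gene, *rna4*, overlaps *isu1* on the opposite strand. No source used here says whether counting took the strand into account, so a share of reads from these partners in the averages cannot be told apart. Of these noncoding RNAs only the 1 over *pcl1* named SPNCRNA.100 is in the tables, with 17.6 normalized reads at 8 h against 5.0 at 0 h. The level of *rna4* was 1095 at 8 h against 1274 at 0 h. The coding gene *bdc1* overlaps *nfs1* on the opposite strand, with 1391 normalized reads at 8 h against 1452 at 0 h.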

How the data were processed

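Poly(A)+ RNA of 12 libraries (3 each at 0, 2, 4 and 8 h) was sequenced with a stranded kit. Per the labels and the methods, mapping by the authors used HISAT2 2.1.0 and assembly ASM294v2, followed by SAMtools, exon counting in HTSeq 0.10.0 and DESeq2 (version not stated) for normalization. The deposited signal is the group average of counts divided by size factors. The deposited tables also hold an average over all libraries of the authors' fit, log2 fold changes, standard errors, test statistics and p-values. These are the authors' own comparisons and were not used. No values per library were at hand, so no test between groups was made, and depth per library is unknown beyond the averages.

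The 8 genes were matched by name. Log2 ratios of averages were computed without a pseudocount (Python 3.11.15, pandas 2.3.3, numpy 2.4.6, scipy 1.17.1), with 95% counting intervals. A gene counted as past the limit at 1.3-fold if the higher of the averages was at least 100. Further genes came from 7 lists by symbol and a list by product text, in which 8 symbols were left out because their product in fission yeast is another one, 15 found no match and 6 were found under an older symbol. The members, the lists and the rules were chosen with earlier results of these data known. Named genes were the 8 members, the 5 nearest coding genes of *isu1*, *pcl1*, *bio2* and *glt1*, up to 6 genes per list with the largest ratio at 8 h or past 2-fold, and 7 iron-sensing genes, and others were chosen after their values were seen, among them *aco1*, *rip1*, *fxn1*, *frp1*, *icl1*, SPCC1235.01, SPAPB1E7.08c, *bdc1* and *rna4*. Lengths, neighbours and promoters came from RefSeq ASM294v3, where 6836 of 6988 features were matched. The tables hold no coordinates, and none were carried between builds. The alternatives are given in the closing section. The ratio and interval were run on simulated counts that varied by counting error alone. That is the model behind the interval, so the run checks the calculation and says nothing about spread between replicates.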

Additional observations from a re-analysis of the deposited data

How the results depend on the processing

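The count of genes past the limit depended on the fold chosen. At 2 h it was 1 gene at 1.3-fold and 2 at 1.2-fold, where 10.3% of all features were higher and 6.55% lower. At 4 h it was 2 genes at 1.3-fold, and 1 at 1.5-fold, at 2-fold or when ratios were centred on the median of all features, since *bio2* lay at the limit. Of all features, 3.70% were higher and 1.33% lower by 1.5-fold at 4 h. At 8 h it was 4 genes at 1.3-fold, 7 at 1.2-fold (1 higher and 6 lower), 1 at 1.5-fold and 0 at 2-fold. The shares of all features at 8 h were 15.0% higher and 15.8% lower at 1.2-fold, and 5.11% and 3.53% at 1.5-fold. Filters of 10 or 500 reads left the counts as they were and could not change them. The filter of 10 removes no member, and that of 500 removes only *isa2*, which was never past 1.3-fold. Scaling to group totals left the counts within 1.5 times and gave 3 genes at 4 h, against 5.51% of all features higher and 6.36% lower. Taking coding genes as background can change only the shares beside the counts. Past 1.3-fold these were then 5.75% higher and 2.59% lower at 4 h, and 8.27% and 6.44% at 8 h. The gap between assembly genes and iron users kept its sign when *isu1* or *pcl1* was left out. It moved beyond the counting error of the genes at the medians in 2 of 6 cases, to 0.17 without *isu1* at 2 h and to 0.21 without *pcl1* at 4 h. Of 48 log2 ratios, including those between later times that were added after seeing the data, none moved beyond its counting interval with centring (at most 0.023) or a pseudocount of 10 (at most 0.0046). Scaling to totals moved them by up to 0.072 and changed the sign of 3 small ones (*isu1* and *isa2* between 4 and 2 h, *isa2* at 4 h), and 20 moved beyond their interval. No paired analysis was possible because the tables hold group averages and no values per library, and leaving out a library could not be run for the same reason. Depth limits *isa2* most, and the spread between libraries was not used for any of the 8 genes, since only the group averages were analysed.

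The list taken by product text, which shares most of its genes with the other lists, held 16 genes besides the members. Of these, 0 were higher and 2 lower by 1.3-fold at 8 h, with a median of -0.11. Over all features 9.06% were higher and 9.24% lower at 8 h, with a median of 0.023.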
